A study of Mus musculus with 6 samples.

Results

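The genes described here are 42 markers and drivers of the cell division cycle, 20 of the G1-S transition and DNA replication and 22 of G2 and mitosis, among 25494 features tested on the array. They were chosen by gene symbol, from textbook roles, and each gene was read by its probe with the highest mean processed signal. The groups were 3 mutant mice, labelled ADAM10 flox/flox-Col2a1-Cre, and 3 mice labelled control. Both were of strain C57BL/6, and the tissue was cartilage of the tibia. In the mutants a Cre recombinase under the promoter of Col2a1, the gene of the main cartilage collagen, acts on loxP-flanked Adam10 alleles. Cells in which this Cre was never active keep the gene intact, and which cells of the tissue these are was not measured. The labels do not say whether control mice carried floxed alleles or Cre. Total RNA of each mouse was read on its own 1-colour Agilent array.

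A cell that commits to division makes cyclin D and cyclin E, which with their kinases release E2F transcription factors. E2F in turn drives the genes that license replication origins and supply nucleotides. Later, the B-Myb and FOXM1 factors bring up the cyclins, kinases and spindle proteins of mitosis, and the anaphase-promoting complex then removes them. In the growth plate of a long bone, column-forming chondrocytes divide before they enlarge, so these transcripts mark the proliferating zone. Blood precursors of the adjoining marrow also divide and carry the same transcripts.

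The 6 arrays came from 1 slide and 1 scan. Mutants 2 and 3 sat in its second row, and mutant 1 and the 3 controls in its first. Each array had 62.4% to 65.4% of its spots well above background and 0 saturated. Mutant 2 and control 1 stood at opposite ends of the first principal component, at 71.2 and -55.4, with the other arrays between -14.1 and 15.2, so the main values are also given without this pair. Y-linked Ddx3y read below the female transcript Xist on mutant 3 and control 1, and above it on the other 4 arrays. All 12 chondrocyte markers, Col2a1, Acan and Sox9 among them, were well above background on every array. Unless a difference is named, values are log2 signals with the 75th percentile of their own array subtracted. Differences are mutant minus control, and SEs and 95% intervals come from limma.

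Adam10, the membrane protease targeted by the deletion, read 0.15, -1.70 and 0.31 in mutants 1 to 3, against 1.61, 1.58 and 1.21 in controls 1 to 3. Every mutant lay below every control. The difference was -1.88 (SE 0.53, 95% interval -3.16 to -0.60). Limma gave an unadjusted p of 0.0108 and, over all features, an adjusted p of 0.987. Without mutant 2 the difference was -1.24. Its single probe may lie outside the floxed part, whose position the labels do not give.

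Against that difference in Adam10, the cell cycle genes lay close together in mutant and control cartilage. Of the 42 genes, 41 were tested, and 0 differed at an adjusted p below 0.05, as was the case for 0.0% of all features. The largest difference below 0 was -0.36, for the replication licensing factor Cdc6. The largest above 0 was 0.32, for the kinetochore protein Cenpf. The 95% interval of all 41 genes lay within a 2-fold difference either way, as it did for 83.2% of all features, and that of 36 genes lay within 1.5-fold, as for 54.5% of all features. The intervals of Cdc6, Rrm2, Plk1, Aurkb and Cenpf reached past 1.5-fold. None of the 41 was at least 2-fold apart at an unadjusted p below 0.05, a rule that 0.624% of all features met in the lower direction and 0.114% in the higher.

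**Figure D1:**
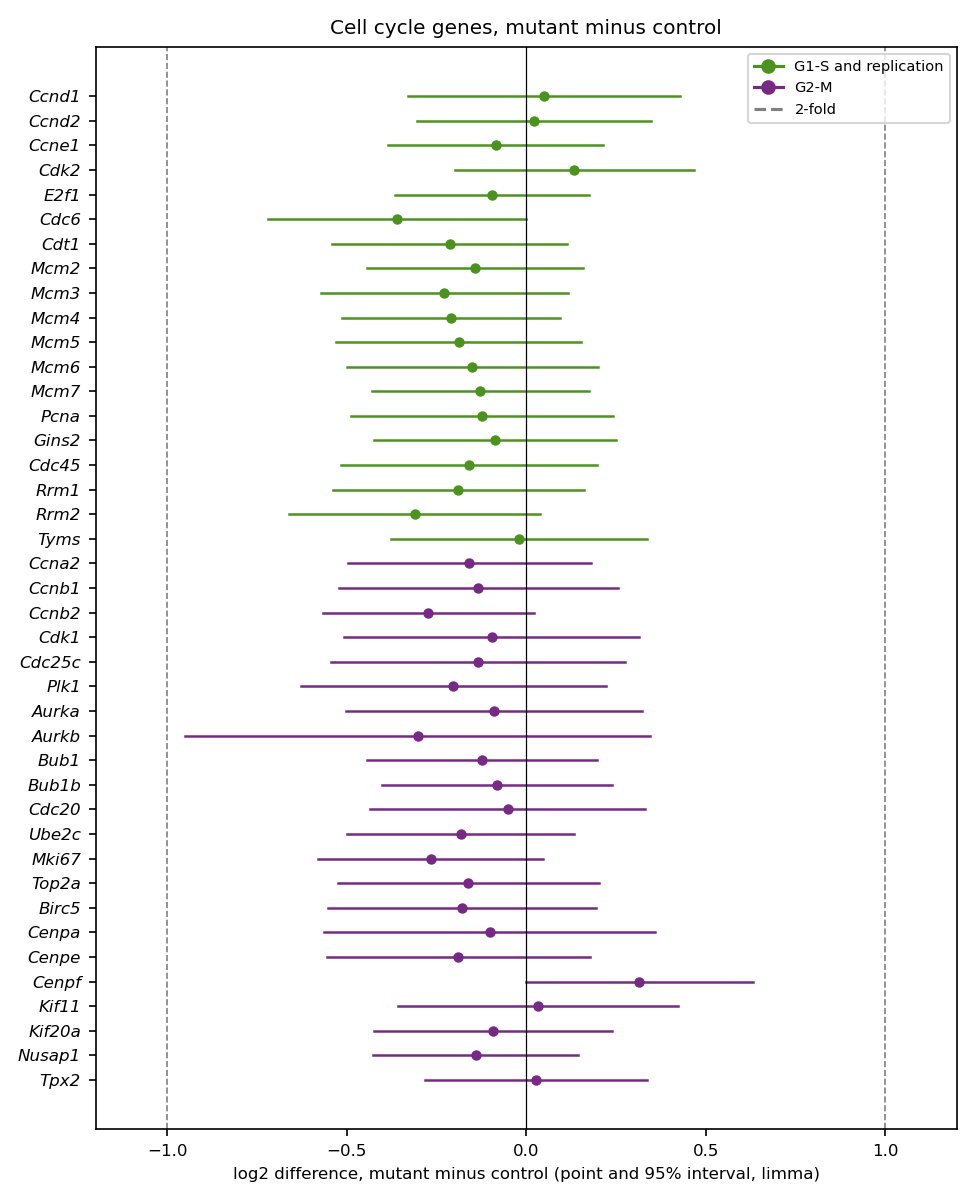
Mutant minus control difference on the log2 scale for each of the 41 tested genes (points) with its 95% interval from limma (bars), 3 mutant and 3 control arrays. Every interval lies between the dashed lines that mark 2-fold, and most points lie slightly left of 0.

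The sign of the differences was less evenly spread than their size was large. Of the 41 genes, 35 (85.4%) had a difference below 0, against 40.0% of all features, and the median difference was -0.13, against 0.043 over all features. Across the alternatives 15 to 17 of the G1-S genes and 14 to 21 of the G2-M genes were below 0. All 3 mutants lay below all 3 controls for 7 genes (17.1%), namely Cdc6, Mcm4, Mcm5, Rrm2, Ccnb2, Ube2c and Mki67, where 3.75% of all features were separated that way. The reverse separation held for Cenpf (2.44% of the genes), where 5.19% of all features showed it. These genes share regulators and rise and fall in the same cells, so they are not independent readings. In bulk tissue, fewer dividing cells and less RNA per cell cannot be told apart.

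Genes of the G1-S transition and of replication had a median difference of -0.14, with 16 of the 19 tested genes below 0. At an unadjusted p below 0.05, 1 of the 19 was lower (Cdc6) and 0 were higher, against 1.88% of all features lower and 1.55% higher. Of the 4 tested G1 cyclins and kinases 3 were above 0, each by less than its SE, and Ccnd1 and Ccnd2 changed sign under some alternatives. Ccnd1 encodes cyclin D1, the mitogen-driven cyclin of proliferating chondrocytes. It read 3.45, 3.29 and 3.51 in mutants 1 to 3, against 3.10, 3.44 and 3.56 in controls 1 to 3, and was chosen for mention after its values were seen. The groups overlapped, the difference was 0.049 (SE 0.16), and it was -0.084 without control 1.

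Ccnd2, a second D-type cyclin, read 3.61, 3.60 and 3.31 in mutants 1 to 3, against 3.59, 3.40 and 3.47 in controls 1 to 3. Its difference was 0.020 (SE 0.14, 95% interval -0.31 to 0.35), and the sign turned when single arrays were left out or with quantile normalization. Cdk2, the kinase partner of cyclin E, read -0.89, -0.66 and -1.03 in mutants and -0.91, -0.98 and -1.08 in controls. Mutant 2 was the highest array for Cdk2, and the groups overlapped. Ccne1, the gene of cyclin E1, differed by -0.085 (SE 0.12). The only probe for its relative Ccne2 was not well above background on any of the 6 arrays, so that gene gave no difference. E2f1, the transcription factor released at the G1-S transition, read 0.76, 0.88 and 0.90 in mutants, against 0.87, 1.00 and 0.96 in controls. Its difference was -0.096 (SE 0.11), within the spread between arrays.

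Origin licensing loads the Mcm2 to Mcm7 helicase onto DNA before S phase, with Cdc6 and Cdt1 as loaders. All 8 genes of this step had differences below 0, with a median of -0.20. Cdc6 read -1.87, -2.04 and -1.93 in mutants 1 to 3, against -1.59, -1.36 and -1.81 in controls 1 to 3. The groups did not overlap, although mutant 1 and control 3 were close. The difference was -0.36 (SE 0.15, 95% interval -0.72 to -0.0014), or 1.28-fold lower, with an unadjusted limma p of 0.0493 and an adjusted p of 0.987. A second, dimmer Cdc6 probe differed by -0.49. Without control 2 the difference was -0.25.

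Mcm6, a helicase subunit, read 4.37, 4.44 and 4.44 in mutants 1 to 3, against 4.31, 4.72 and 4.67 in controls 1 to 3. Control 1 lay below all 3 mutants while the other controls lay above them. The difference was -0.15 (SE 0.15), and it was -0.28 without control 1 and -0.074 without control 2. The 6 helicase genes differed by -0.13 to -0.23. Mcm4 averaged 2.82 ± 0.077 in mutants and 3.02 ± 0.14 in controls (SD, n = 3 each), and Mcm5 averaged 1.82 ± 0.028 in mutants and 2.01 ± 0.21 in controls. Their groups did not overlap, but for both the gap between the highest mutant and control 1 was under the spread among the controls. Cdt1, the other loader, differed by -0.21 (SE 0.14).

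At the replication fork Cdc45, which joins the helicase when origins fire, read -2.47, -2.53 and -2.35 in mutants, against -2.38, -2.04 and -2.45 in controls. Pcna, the sliding clamp of DNA polymerases, read 3.95, 3.97 and 3.77 in mutants and 3.83, 4.27 and 3.97 in controls. In both genes control 2 was the highest array and the groups overlapped. The differences were -0.16 (SE 0.15) for Cdc45 and -0.12 (SE 0.15) for Pcna. Rrm2, the regulated subunit of ribonucleotide reductase, read 3.35, 3.09 and 3.46 in mutants, against 3.50, 3.74 and 3.60 in controls. Its groups did not overlap, and mutant 2 was the lowest array. The difference was -0.31 (SE 0.15, unadjusted p 0.0733, adjusted p 0.987), and without mutant 2 it was -0.20. Rrm1, the large subunit, differed by -0.19 (SE 0.15).

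**Figure D2:**
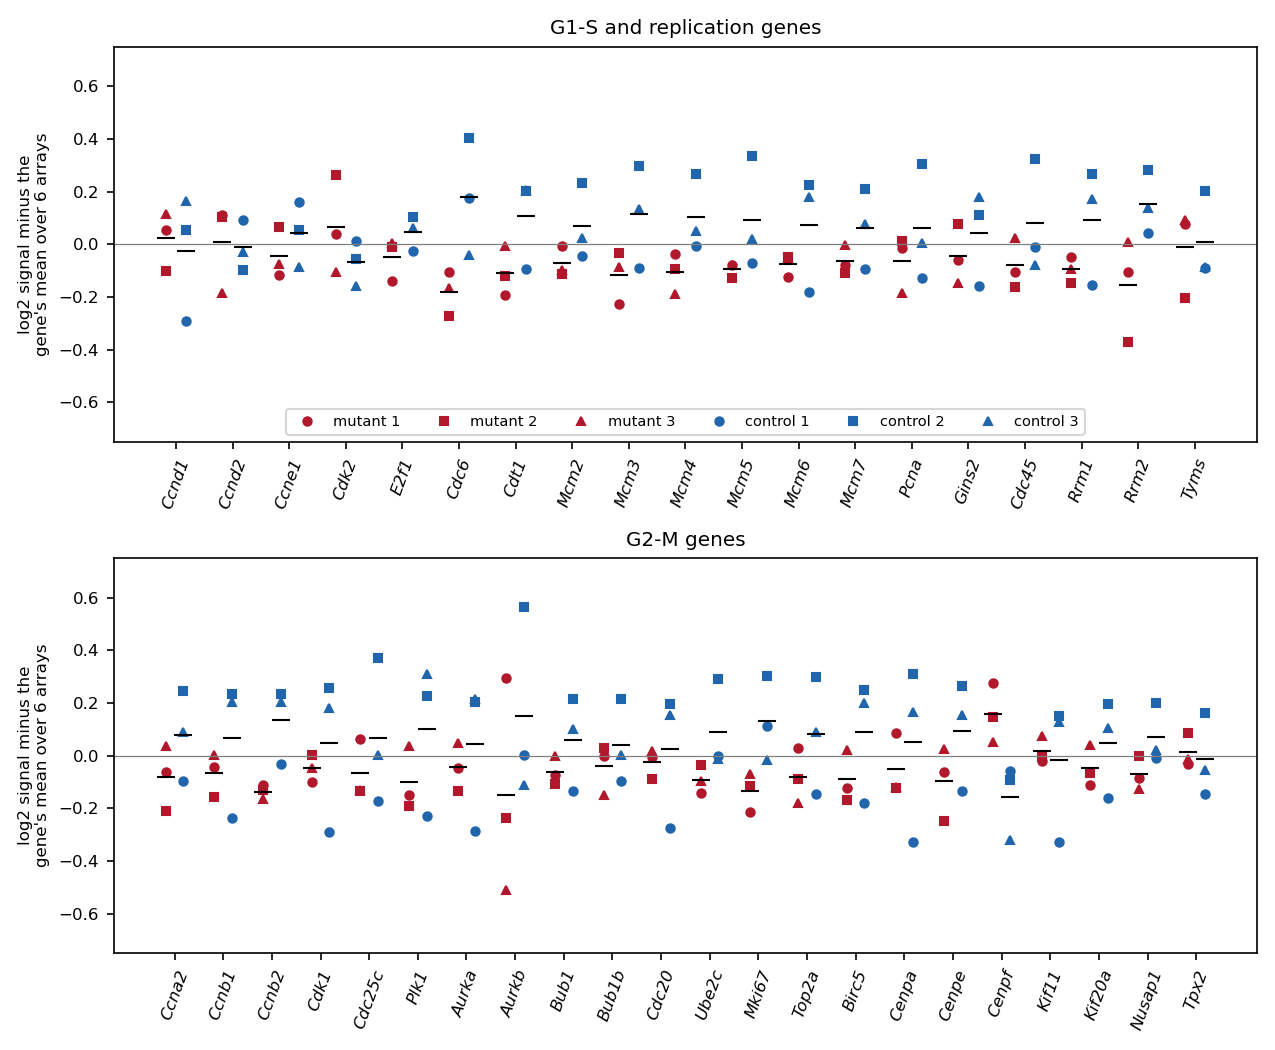
Log2 signal of each gene on each array minus that gene's mean over the 6 arrays, with mutants in red left of controls in blue, marker shapes for mice 1 to 3 and black dashes for group means. Control 2 (blue squares) is the highest array for 32 of the 41 genes, control 1 (blue circles) is often the lowest, and the mutants lie between them or near control 1.

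Promoters of replication genes are a textbook home of E2F sites, so the annotated promoters were searched for them. Of the 42 genes, 32 had an entry in the RefSeq promoter table of build GRCm38.p6, 15 of them from the G1-S group, and each window ran from 250 bases before the annotated start to 50 after it. The searched letters were TTCGCGC or TTGGCGC, on both strands, for an E2F site, which can overlap each other where they sit back to back. A match stood in 5 of 15 G1-S promoters (33.3%), 3 of 17 G2-M promoters (17.6%) and 3.98% of the 27025 genes with an entry. All of Cdt1, Mcm3, Mcm5, Mcm6 and Mcm7 held one. The promoter of Mcm6 (chr1:128359656-128359955, minus strand) is shown because it held the most matches. That of Cdc6 (chr11:98907901-98908200, plus strand) is shown because Cdc6 had the largest difference. Capitals mark E2F letters and, in Mcm6, CCAAT or its complement, and the Cdc6 window held no match to either. Other spellings of an E2F site were not searched, so a window without a match, as in Cdc6, may still hold a site.
Mcm6: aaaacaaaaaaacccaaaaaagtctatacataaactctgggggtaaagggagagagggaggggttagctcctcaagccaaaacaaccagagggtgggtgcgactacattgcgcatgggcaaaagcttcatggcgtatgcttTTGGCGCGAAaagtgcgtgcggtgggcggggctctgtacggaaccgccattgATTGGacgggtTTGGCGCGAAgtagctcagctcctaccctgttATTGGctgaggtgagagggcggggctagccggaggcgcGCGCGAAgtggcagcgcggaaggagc
Cdc6: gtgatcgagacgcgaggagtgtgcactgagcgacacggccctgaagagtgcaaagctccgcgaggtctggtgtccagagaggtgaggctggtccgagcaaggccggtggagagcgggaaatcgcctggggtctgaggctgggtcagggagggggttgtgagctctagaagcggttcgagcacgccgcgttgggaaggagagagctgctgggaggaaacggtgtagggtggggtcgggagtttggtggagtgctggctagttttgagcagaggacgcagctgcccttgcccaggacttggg

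Genes of G2 and mitosis had a median difference of -0.13, with 19 of 22 below 0. At an unadjusted p below 0.05, 0 were lower and 0 higher, against 1.88% of all features lower and 1.55% higher. By the adjusted limma p 0 of 22 were called. Ccnb2 encodes cyclin B2, an activator of the mitotic kinase Cdk1. It read 2.92, 2.90 and 2.87 in mutants 1 to 3, against 3.00, 3.27 and 3.24 in controls 1 to 3. The mutants were tightly grouped and all below the controls, with control 1 nearest to them. The difference was -0.27 (SE 0.12, 95% interval -0.57 to 0.022), or 1.21-fold lower, with an unadjusted p of 0.0647 and an adjusted p of 0.987. It ran from -0.36 to -0.22 when single arrays were left out.

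The other cyclins that act with Cdk1 differed less. Ccna2, cyclin A2 of S and G2 phase, differed by -0.16 (SE 0.14), Ccnb1, cyclin B1, by -0.13 (SE 0.16), and Cdk1 by -0.096 (SE 0.17). Among mitotic kinases Plk1, which drives spindle and centrosome maturation, read 2.56, 2.51 and 2.74 in mutants, against 2.47, 2.93 and 3.01 in controls. Control 1 lay below every mutant and the other controls above, so the groups overlapped, and the difference was -0.20 (SE 0.18). Aurkb, the kinase of the chromosomal passenger complex, had the widest interval of the 41 genes (-0.95 to 0.34) around a difference of -0.30.

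The anaphase-promoting complex ends mitosis through its activator Cdc20 and its ubiquitin-conjugating enzyme Ube2c. Cdc20 read 3.33, 3.25 and 3.36 in mutants 1 to 3, against 3.06, 3.53 and 3.49 in controls 1 to 3. All mutants fell inside the range of the controls, and the difference of -0.051 (SE 0.16) turned to 0.034 without control 2 and to 0.014 without control 3. Ube2c read 1.63, 1.74 and 1.68 in mutants, against 1.77, 2.06 and 1.76 in controls. Its groups were separated by a small margin, with control 2 alone well above the rest, and the difference was -0.18 (SE 0.13).

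Among chromosome and kinetochore genes, Mki67, the proliferation antigen Ki-67, averaged 3.83 ± 0.074 in mutants and 4.10 ± 0.16 in controls (SD, n = 3 each). Its groups did not overlap, and its second probe gave the same size of difference, -0.26 against -0.27 (SE 0.13, adjusted p 0.987). Birc5 encodes survivin of the chromosomal passenger complex. It read 4.31, 4.26 and 4.45 in mutants, against 4.25, 4.68 and 4.63 in controls, again with control 1 below every mutant. Top2a, the DNA topoisomerase of dividing cells, differed by -0.16 (SE 0.15).

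Cenpf, which binds the outer kinetochore, was separated in the opposite direction. It read -4.25, -4.38 and -4.48 in mutants, against -4.59, -4.62 and -4.85 in controls, and every mutant was above every control. The difference was 0.32 (SE 0.13, unadjusted p 0.0508, adjusted p 0.987). Its signal was close to the lowest values called above background, 1 control array did not pass that call, and the difference was 0.11 with normexp background correction and percentile scaling. Cenpf was the only tested gene of the 41 not well above background on all 6 arrays.

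Of the spindle genes, Nusap1, which bundles microtubules at chromosomes, read 0.82, 0.90 and 0.77 in mutants, against 0.89, 1.103 and 0.92 in controls. Kif20a, a kinesin of cytokinesis, read 1.32, 1.36 and 1.47 in mutants, against 1.27, 1.63 and 1.53 in controls. Both overlapped between groups, with differences of -0.14 (SE 0.12) for Nusap1 and -0.093 (SE 0.14) for Kif20a. Among the 8 genes of both phases with several probes, the probes of each gene gave differences of the same sign in all 8.

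Promoters of mitotic genes carry the CHR element, the binding letters of the DREAM and B-Myb complexes, commonly downstream of CCAAT boxes bound by NF-Y. The CHR was searched as TTTGAA and the NF-Y box as CCAAT, on both strands, and the letters of both can share a base. TTTGAA stood in 12 of 17 G2-M promoters (70.6%), in 2 of 15 G1-S promoters (13.3%) and in 18.1% of all genes. CCAAT stood in 15 of 17 G2-M promoters (88.2%), in 10 of 15 G1-S promoters (66.7%) and in 37.9% of all genes. All 12 G2-M promoters with TTTGAA also held CCAAT, and in 11 of them a TTTGAA began within 50 bases of the annotated start. Windows ended 50 bases after the start, so every match downstream of it met that limit by design. The share of all genes with a match that close is not given. Among the other G2-M genes described further on, which were not members, 21 of 32 promoters (65.6%) held TTTGAA. A letter match is a description of these windows and not a measured site.

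The promoters of Ccnb2 (chr9:70421505-70421804, minus strand), Cdk1 (chr10:69352863-69353162, minus strand) and Cdc20 (chr4:118437294-118437593, minus strand) are printed as examples of mitotic genes with both elements. Ccnb2 had the smallest p of its role group, while Cdk1 and Cdc20 differed little between groups. Capitals mark matches to the searched elements in either strand.
Ccnb2: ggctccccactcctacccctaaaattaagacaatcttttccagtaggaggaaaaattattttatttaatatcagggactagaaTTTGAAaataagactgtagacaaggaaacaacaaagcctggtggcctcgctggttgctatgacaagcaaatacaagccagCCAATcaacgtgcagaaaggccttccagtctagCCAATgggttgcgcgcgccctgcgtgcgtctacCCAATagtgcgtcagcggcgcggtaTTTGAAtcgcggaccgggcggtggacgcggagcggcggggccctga
Cdk1: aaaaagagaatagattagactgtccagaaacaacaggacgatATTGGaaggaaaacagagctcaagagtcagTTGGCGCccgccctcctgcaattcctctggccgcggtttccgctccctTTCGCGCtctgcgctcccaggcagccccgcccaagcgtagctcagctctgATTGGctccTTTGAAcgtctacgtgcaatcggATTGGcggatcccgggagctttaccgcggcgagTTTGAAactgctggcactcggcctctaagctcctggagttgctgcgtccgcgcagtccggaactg
Cdc20: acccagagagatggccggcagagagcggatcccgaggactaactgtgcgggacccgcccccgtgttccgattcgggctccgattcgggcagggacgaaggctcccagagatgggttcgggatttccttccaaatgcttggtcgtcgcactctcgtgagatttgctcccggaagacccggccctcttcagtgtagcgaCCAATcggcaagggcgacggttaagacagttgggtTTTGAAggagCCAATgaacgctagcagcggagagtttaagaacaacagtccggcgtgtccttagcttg
In Ccnb2 3 CCAAT boxes precede a TTTGAA that begins at base 5 after the start. In Cdk1 a TTTGAA begins at position -15 and in Cdc20 at -18, counted back from the start.

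**Figure D3:**
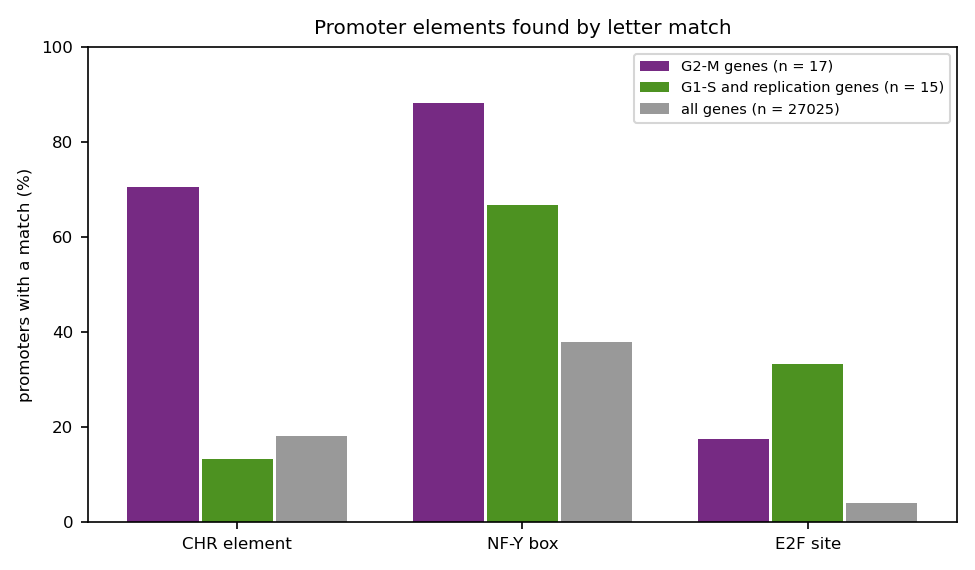
Share of promoter windows that hold each element by letter match, for the G2-M genes, the G1-S and replication genes, and all genes with an entry. The CHR element stands in 70.6% of G2-M windows, against 13.3% of G1-S windows and 18.1% of all windows, while E2F letters are most frequent in G1-S windows.

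**Figure D4:**
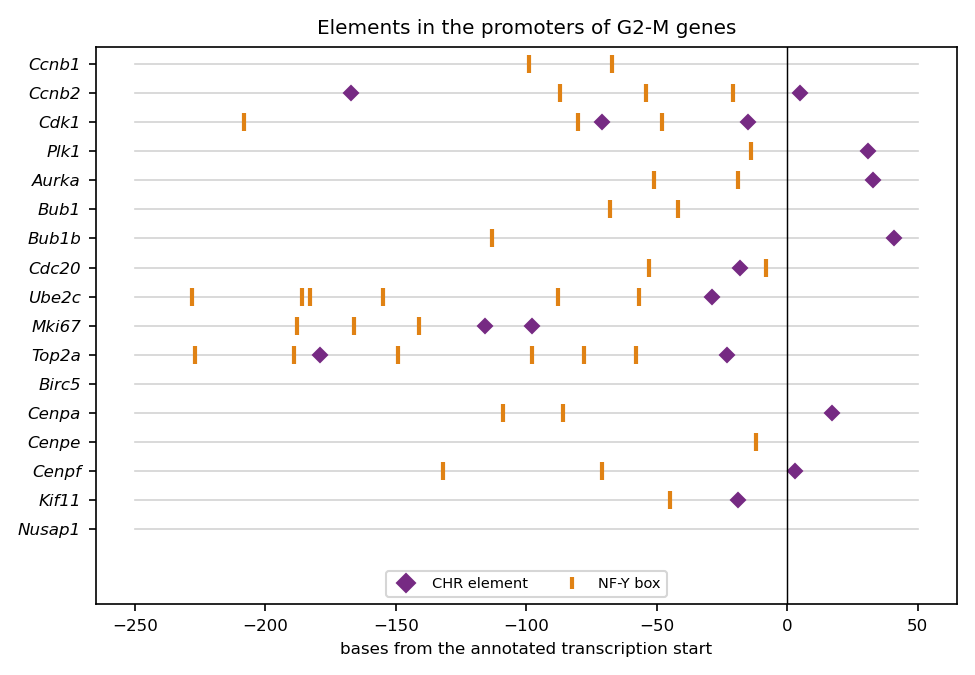
Position of each CHR element (diamonds) and NF-Y box (ticks) in the windows of the 17 G2-M genes with an entry, in bases from the annotated start. In 11 genes a diamond lies within 50 bases of the start, and most ticks lie upstream of it. The windows end 50 bases after the start.

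Both phases ranked the arrays in a similar way. Each list was scored on an array by centring every gene's log2 signal on its 6-array mean and averaging over the genes. The score was -0.060, -0.073 and -0.064 for G1-S genes in mutants 1 to 3, against -0.050, 0.20 and 0.050 in controls 1 to 3. For G2-M genes it was -0.029, -0.090 and -0.057 in mutants, against -0.15, 0.24 and 0.082 in controls. In both phases the controls spread more widely than the mutants. All 3 mutants lay below all 3 controls in the G1-S score, while in the G2-M score control 1 lay below every mutant. Control 2 was the highest of the 6 arrays for 32 of the 41 genes, and control 1 was the lowest of the controls for 32. The G2-M score minus the G1-S score lay between -0.017 and 0.031 in mutants and between -0.097 and 0.045 in controls, so the balance of the phases overlapped between groups.

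The median differences therefore leaned on which controls were counted. Without control 2 the median was -0.068 for G1-S genes and -0.048 for G2-M genes, with 14 of 22 G2-M genes below 0. Without control 1 the medians were -0.21 for G1-S genes and -0.25 for G2-M genes, and without both control 1 and mutant 2 they were -0.25 and -0.22. Within the slide's first row they were -0.14 for G1-S genes and -0.12 for G2-M genes, and on the 4 arrays with Y-linked signal above Xist -0.22 and -0.24. Without that pair 3 of 19 G1-S genes and 2 of 22 G2-M genes were lower at an unadjusted p below 0.05, against 3.24% of all features, and 0 were higher, against 4.22%. That setting was chosen after seeing the data. With array weights in limma, 11 of 19 G1-S genes were lower at an unadjusted p below 0.05, as were 12 of 22 G2-M genes, against 8.74% of all features under the same weights. In that fit 1 G2-M gene was higher, against 6.9% of all features, and 0 of the 41 genes passed the adjusted threshold, the smallest adjusted p being 0.222.

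Cell cycle genes outside the 42, taken from longer lists of the same phases, were set beside them. Of 32 other G1-S genes, 22 were below 0 with a median difference of -0.075, and of 36 other G2-M genes 28 were below 0 with a median of -0.096. Of all features 40.0% were below 0, with a median of 0.043. By the adjusted p 0 of either list were called. At an unadjusted p below 0.05 there were 1 of 32 and 2 of 36, all lower, against 1.88% of all features lower and 1.55% higher. Uhrf1, which maintains DNA methylation at forks, read 2.05, 1.68 and 2.13 in mutants, against 2.40, 2.48 and 2.35 in controls. Its groups did not overlap, and its difference was -0.46 (SE 0.15, unadjusted p 0.0229). Dbf4, the activator of the Cdc7 kinase, differed by -0.26 (SE 0.12), and E2f8, a repressing E2F factor, by -0.27 (SE 0.13). E2f2, named after its values were seen, had the largest difference of the 2 lists, -0.95 (SE 0.50, 95% interval -2.14 to 0.25). It read 0.81, 0.73 and 1.07 in mutants 1 to 3, against 2.74, 2.04 and 0.67 in controls 1 to 3, and the groups overlapped. Ttk, the spindle checkpoint kinase Mps1, differed by -0.55 (SE 0.18), the F-box cyclin Ccnf by -0.35 (SE 0.13) and the Cdk1-activating phosphatase Cdc25b by -0.36 (SE 0.20). For Dbf4, E2f8, Ttk and Ccnf every mutant lay below every control, while for Cdc25b the groups overlapped. Separation in that direction held for 3 of 32 other G1-S genes and 3 of 36 other G2-M genes, against 3.75% of all features. The reverse separation held for 1 of 32 and 0 of 36, against 5.19% of all features.

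Of 16 cell cycle inhibitors and related brakes, 9 were above 0 and 7 below, with a median difference of 0.073, and 0 were called by the adjusted p. Over all features 40.0% were below 0 and the median was 0.043, so the signs of this list were close to those of all features. At an unadjusted p below 0.05 there were also 0, against 1.88% of all features lower and 1.55% higher. Cdkn1a, the kinase inhibitor induced by p53, read 2.80, 2.60 and 2.80 in mutants 1 to 3, against 2.28, 2.39 and 2.59 in controls 1 to 3. Mutant 2 and control 3 were nearly level, and every mutant was above every control. The difference was 0.32 (SE 0.14, unadjusted p 0.0574, adjusted p 0.987). Ccng1, another p53-induced gene, differed by 0.26 (SE 0.13), and Rbl2, the pocket protein of quiescent cells, by 0.23 (SE 0.15).

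Markers of other cell types differed between arrays far more than the cell cycle genes did. Of 12 erythroid markers 10 were tested, and all 10 were below 0 with a median difference of -1.095. Their summed signal, in units of the array's 75th percentile, ran from 7.93 to 9.26 in mutants and from 8.03 to 24.2 in controls. For 12 neutrophil markers the median was -1.56, with 11 below 0 and sums of 204 to 260 in mutants, against 241 to 348 in controls. Most of each sum came from Csf3r, the receptor of a granulocyte growth factor and the 1 marker not below 0 (difference 0.035). Without Csf3r the sums were 11.8 to 27.1 in mutants, against 14.6 to 160 in controls. B lymphocyte markers, 8 of 10 tested, had a median of -1.60 and sums of 2.35 to 3.94 in mutants, against 3.32 to 10.6 in controls. The B cell markers Pax5 and Rag1 and the erythroid marker Rhag were not well above background on any mutant array, and Cd163 of macrophages on none of the 6.

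In 3 of the marker lists every mutant scored below every control, as in the G1-S score. Macrophage markers, 8 of 10 tested and all 8 below 0, had a median difference of -1.05 and sums of 7.57 to 25.6 in mutants, against 28.4 to 36.0 in controls. Osteoclast markers, all 8 below 0, had a median of -1.41 and sums of 31.6 to 160 in mutants, against 236 to 325 in controls. In the macrophage list and in the osteoclast list 5 genes each had every mutant below every control, where 3.75% of all features were separated that way. Endothelial markers, 7 of 8 below 0, had a median of -0.79 and sums of 25.1 to 54.7 in mutants, against 45.5 to 57.8 in controls. In all 3 lists mutant 2 was the lowest array and control 2 the highest. The G1-S score had the same lowest and highest arrays, but its mutants were nearly level, at -0.060, -0.073 and -0.064. In the osteoclast score mutants 1 to 3 stood at -0.047, -2.08 and 0.090.

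The erythroid scores ordered the arrays differently, with control 1 highest at 1.78 and control 3 lowest at -1.25. Control 1 was also highest in the neutrophil (1.87), B lymphocyte (1.35), blood progenitor (0.51) and muscle (2.42) scores. The lowest array was mutant 1 for neutrophil and B lymphocyte markers, and mutant 2 for blood progenitor and muscle markers. In the G2-M score control 1 was lowest and control 3 above every mutant. Blood progenitor markers, 6 of 8 below 0, had a median of -0.51 and sums of 11.6 to 22.1 in mutants, against 16.4 to 30.9 in controls. Muscle markers, all 8 below 0, had a median of -0.42. Their scores ran from -2.68 to 1.47 in mutants and from -0.91 to 2.42 in controls. Osteoblast markers, 4 of the 7 tested below 0, had a median of -0.14. Their scores ran from -0.83 to 0.20 in mutants and from -0.19 to 0.52 in controls. Chondrocyte markers, 11 of 12 above 0, had a median of 0.30 and sums of 2923 to 3771 in mutants, against 2685 to 3207 in controls. For comparison, 40.0% of all features were below 0. The chondrocyte score was highest on mutant 2 (0.40) and lowest on control 1 (-0.34). Mutants 1 and 3 stood at -0.021 and 0.0011, nearly level with controls 2 and 3 at 0.0016 and -0.032. Most of the difference in the chondrocyte list therefore lay in mutant 2 and control 1. The part of these cell types in the small cell cycle differences was not tested.

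**Figure D5:**
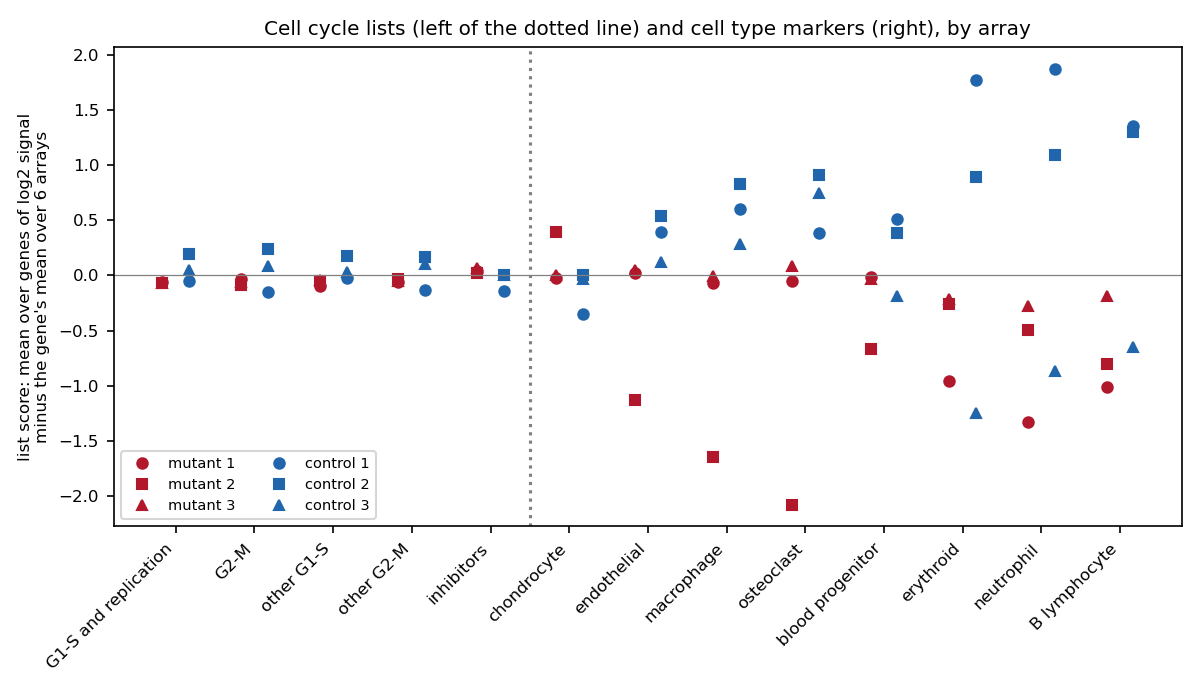
List scores on each array (log2 signal centred on each gene's 6-array mean, averaged over the list), mutants in red left of controls in blue, with cell cycle lists left of the dotted line and cell type markers right of it. Cell cycle scores stay between -0.15 and 0.24, while erythroid, neutrophil, B lymphocyte, macrophage and osteoclast markers span more than 2 log2 units between arrays. Blood progenitor markers span less, from -0.67 to 0.51. Muscle and osteoblast markers are not drawn.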

How the data were processed

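Tibial cartilage RNA of 3 mutant and 3 control mice was read on 1-colour Agilent arrays, each sample grouped by its title. Per the file headers and the submitters' processing notes, Agilent Feature Extraction 10.7.1.1 made the deposited intensity values, background-subtracted and not normalized between arrays, on a design annotated on mm9. The authors' deposited value table holds a linear ratio to each array's 75th percentile, as read from its values, and how it was made is not given in the sources used here.

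Control and outlier spots were dropped. Log2 of the processed signal was taken, less its array's 75th percentile over 59305 non-control spots, and spots of a probe were averaged. Accessions were matched to RefSeq symbols (GRCm38.p6) for 27656 of 55681 probes. Probes well above background on at least 3 of 6 arrays were kept, and the probe with the highest mean signal stood for each gene, giving 25494 features. The comparison used lmFit and eBayes of limma 3.58.1 under R 4.3.3 (two-sided tests, Benjamini-Hochberg over all features, threshold 0.05, with 4 residual degrees of freedom plus a prior of 2.42). The number of arrays limits the precision. The replicates are separate mice, per the labels.

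The members and lists were chosen with earlier results of these data known. Values on every array are given for Adam10 and, in each role group, for the gene with the smallest unadjusted p and the one with the highest signal, and 3 genes are named per other list. Ccnd1, Ccne1, Ccna2, Ccnb1, Cdk1, Aurkb, Mki67, Top2a, Cdt1, Rrm1, Mcm4 and Mcm5 were added after their values were seen, as was E2f2 of the other G1-S list. The labels share replicate numbers 1 to 3 between groups, which name mice and do not pair them. Lists are described by counts and medians, with no test. Alternatives were background correction, scaling, the authors' table, the filter, the probe rule, weights, variance model, replicate block, single arrays left out, the slide row and sex-linked signal, and, added after seeing the data, control 1 and mutant 2 left out together. The headers record 1 channel, although the label field names Cy5 and the protocol Cy3.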

Additional observations from a re-analysis of the deposited data

How the results depend on the processing

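Under all 19 alternatives 0 of the 40 to 42 cell cycle genes tested passed the adjusted threshold and 0 were at least 2-fold apart at an unadjusted p below 0.05, and both medians stayed below 0. The G1-S median ran from -0.26 to -0.068 and the G2-M median from -0.25 to -0.048. With array weights the medians were -0.26 for G1-S genes and -0.21 for other G1-S genes. Without control 1 and mutant 2 they were -0.25 for G1-S genes, -0.19 for other G1-S genes and -0.21 for other G2-M genes. When single arrays were left out the median of other G2-M genes ran from -0.21 to -0.023, and that of the inhibitors from 0.027 to 0.14. With array weights the inhibitor median turned to -0.0086.

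Counts at an unadjusted p below 0.05 varied between settings, and the cause was not tested. Over all features the share was 1.88% lower and 1.55% higher in the fit reported, and 8.74% lower and 6.9% higher with array weights. Without control 1 and mutant 2 it was 3.24% lower and 4.22% higher. Shares under the other settings are not given, so their counts cannot be set against all features. For G1-S genes, 1 in the fit reported, the count was 0 with quantile normalization, no filter, the replicate block and the first row of the slide, 4 with normexp and quantile normalization, 11 with array weights, 3 without control 1 and mutant 2, and 0 to 2 when single arrays were left out. For G2-M genes, 0 in the fit reported, it was 1 with normexp and quantile normalization, with the mean over probes and with the trend and robust variance. It was 2 with quantile normalization, on arrays with Y-linked signal and without control 1 and mutant 2, 13 with array weights, and 0 to 4 when single arrays were left out.

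Ccnd2 turned to -0.014 with quantile normalization and ran from -0.031 to 0.12 when single arrays were left out, Cdc20 from -0.20 to 0.034, Cdk1 from -0.27 to 0.0072 and Ccnd1 from -0.084 to 0.14. Ccnd1 was -0.13 on arrays with Y-linked signal and -0.022 without control 1 and mutant 2. Aurkb was 0.14 within the slide's first row. The cause of these turns was not tested.

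Over all features, array weights gave 4 calls at the adjusted threshold and every other fit 0, with 875 features at an unadjusted p below 0.05 in the fit reported. Features at least 2-fold apart at an unadjusted p below 0.05 numbered 159 lower and 29 higher. The lower count was 68 with normexp and percentile scaling, 53 with normexp and quantile normalization, 314 without a filter, 342 with array weights, 290 on arrays with Y-linked signal, 87 without control 1 and mutant 2, and 61 to 357 when single arrays were left out. The higher count was 0 with either normexp fit, 185 without a filter, 14 where all 6 arrays had to be above background, 205 with array weights, 47 on the first row of the slide, 71 on arrays with Y-linked signal, 285 without control 1 and mutant 2, and 28 to 65 when single arrays were left out.

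Same-numbered arrays correlated in their deviations at 0.20, 0.059 and -0.16, and 1 of 3 mutants and 2 of 3 controls correlated best with their own number. As the correlations did not all lie above 0, the numbers were not taken as pairs. With the replicate block the G1-S and G2-M medians were -0.14 and -0.13, 0 genes of either list were called by the adjusted p, and 0 of the G1-S genes passed the unadjusted threshold. Signal over background limits Cenpf and Ccne2, and the probes of Aurkb and Ttk were also dim.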
